A study of Mus musculus with 23 samples.

Results

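The expression of 10 osteoclast-type genes was followed through macrophages sorted from 3 mouse models of head and neck cancer, colonies grown from such macrophages and the cultured tumour lines. The genes were Tnfrsf11a, Oscar, Calcr, Nfatc1, Ocstamp, Dcstamp, Acp5, Ctsk, Atp6v0d2 and Slc9b2, which are 10 of the 36793 genes in the deposited tables. They were selected by name, and the selection was made with the expected counts (estimated read counts) of these same 23 libraries already known. Levels of the 10 genes and differences between groups are therefore given as a description. Where a threshold is applied to them, the outcome is part of that description and not an independent test.

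Osteoclasts are the multinucleated cells that break down bone, and they arise from the same myeloid precursors as macrophages. The growth factor CSF1, acting on its receptor CSF1R, keeps the precursors alive. The ligand RANKL, encoded by Tnfsf11, acts on the receptor RANK, encoded by Tnfrsf11a, and with costimulatory receptors that signal through ITAM adaptors it induces the transcription factor NFATc1. NFATc1 with partners such as PU.1, MITF and AP-1 then turns on genes for cell fusion, for acid secretion and for the enzymes that dissolve and digest bone matrix. Several of these genes are also active in macrophages outside bone, where their products serve lysosomes and cell fusion.

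The macrophages were CD45+CD11b+Gr1-F4/80hi cells sorted from subcutaneous tumours, with each library pooled from 3 to 4 mice. HPV-negative and HPV-positive MEER tumours grew in C57/Bl6 mice, and SCCVII tumours (also written SSCVII in the labels), which are HPV-negative, grew in C3H/HeJ mice. Each model had 3 macrophage libraries and 3 libraries of replicate aliquots of its single cultured line. Colonies were grown from sorted macrophages for 9 days in a haematopoietic stem cell medium and had 3 HPV-negative MEER libraries and 2 SCCVII libraries. SCCVII differs from MEER in tumour line and mouse strain at once, which cannot be told apart. The HPV-positive and HPV-negative MEER tumours are different lines, so HPV status and line cannot be told apart either. The ages of the mice are not given in the labels. Aliquots of 1 line may differ only technically, so spread between line libraries measures no more than that.

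Libraries held 26848759 to 47609481 expected counts. The sort was reflected in 7 macrophage markers (Ptprc, Itgam, Adgre1, Csf1r, Cd68, Fcgr1 and Mertk), whose summed level was 2905 to 4689 TPM in the 9 macrophage libraries. It was lowest in HPV-positive MEER, at 2905 to 3096 TPM, beside 3821 to 4429 TPM in HPV-negative MEER and 4359 to 4689 TPM in SCCVII macrophages. The part of this difference in the results was not tested. TPM is a transcript abundance scaled to a fixed total, which corrects for gene length. In the colonies the same sum was uneven, at 1929, 88.4 and 35.8 TPM in HPV-negative MEER colonies 1, 2 and 3 and at 1043 and 145 TPM in SCCVII colonies 1 and 2. Colonies 2 and 3 of HPV-negative MEER and colony 2 of SCCVII thus went against their macrophage label, and results are also given with colony libraries left out. Of 7 osteoblast and bone stroma markers, 3 had no count in any library of a macrophage group, in each of the 3 groups. They included Ibsp, bone sialoprotein, in all 3 groups and Sp7, the osteoblast transcription factor, in those of HPV-negative MEER and SCCVII. The sum over all 7 was 20.9 to 24.4 TPM in HPV-positive MEER macrophages, 4.36 to 9.12 TPM in HPV-negative MEER macrophages and 2.39 to 5.24 TPM in SCCVII macrophages, and its part in the results was not tested. No library was labelled as an osteoclast.

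Promoter sequences are shown for the 3 genes that separated HPV-negative from HPV-positive MEER macrophages most widely in the downward direction, namely Ctsk, Slc9b2 and Oscar. The 250 bases before the RefSeq start (GRCm38.p6) are printed 5′ to 3′ on the gene's strand. Capitals mark 5 motifs on either strand: the NFAT core GGAAA, the AP-1 site TGANTCA, the E-boxes CACGTG and CATGTG that MITF-type factors can use, and the PU.1 core GAGGAA. The last overlaps the first where GAGGAAA occurs. The windows are Ctsk on chr3:95498960-95499209 (plus strand), Slc9b2 on chr3:135307450-135307699 (plus strand) and Oscar on chr7:3616158-3616407 (minus strand).
Ctsk: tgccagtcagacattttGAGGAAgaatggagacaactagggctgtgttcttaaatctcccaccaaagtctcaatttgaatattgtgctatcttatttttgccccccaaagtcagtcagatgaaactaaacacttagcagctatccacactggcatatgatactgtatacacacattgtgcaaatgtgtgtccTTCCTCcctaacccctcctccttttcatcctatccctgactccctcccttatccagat
Slc9b2: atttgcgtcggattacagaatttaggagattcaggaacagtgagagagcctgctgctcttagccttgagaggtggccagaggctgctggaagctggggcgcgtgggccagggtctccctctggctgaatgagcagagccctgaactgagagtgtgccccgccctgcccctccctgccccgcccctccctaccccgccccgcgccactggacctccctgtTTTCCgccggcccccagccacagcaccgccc
Oscar: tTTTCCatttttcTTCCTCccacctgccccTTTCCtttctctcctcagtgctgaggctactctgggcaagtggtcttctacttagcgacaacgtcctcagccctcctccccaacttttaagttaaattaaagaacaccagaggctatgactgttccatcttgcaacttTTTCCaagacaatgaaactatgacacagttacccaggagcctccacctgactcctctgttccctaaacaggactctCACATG
The Ctsk window held 2 PU.1 cores and no NFAT core, the Slc9b2 window 1 NFAT core, and the Oscar window 3 NFAT cores, 1 PU.1 core and 1 CATGTG. Over 32851 promoter windows of this length, 55.6% held an NFAT core, 6.7% an AP-1 site, 6.0% CACGTG, 12.3% CATGTG and 23.3% a PU.1 core. Among the other members, Tnfrsf11a had no match, the 2 Calcr windows had 0 and 1 NFAT core, and the 3 Acp5 windows had 1, 1 and 2 NFAT cores and 1 CATGTG between them. Promoter windows were searched for 6 of the 10 genes. Ocstamp, Dcstamp and Atp6v0d2 had no promoter entry, and Nfatc1 was left out of the search of members, so nothing is known here of its motifs. A match is a run of letters and not evidence of binding.

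**Figure D1:**
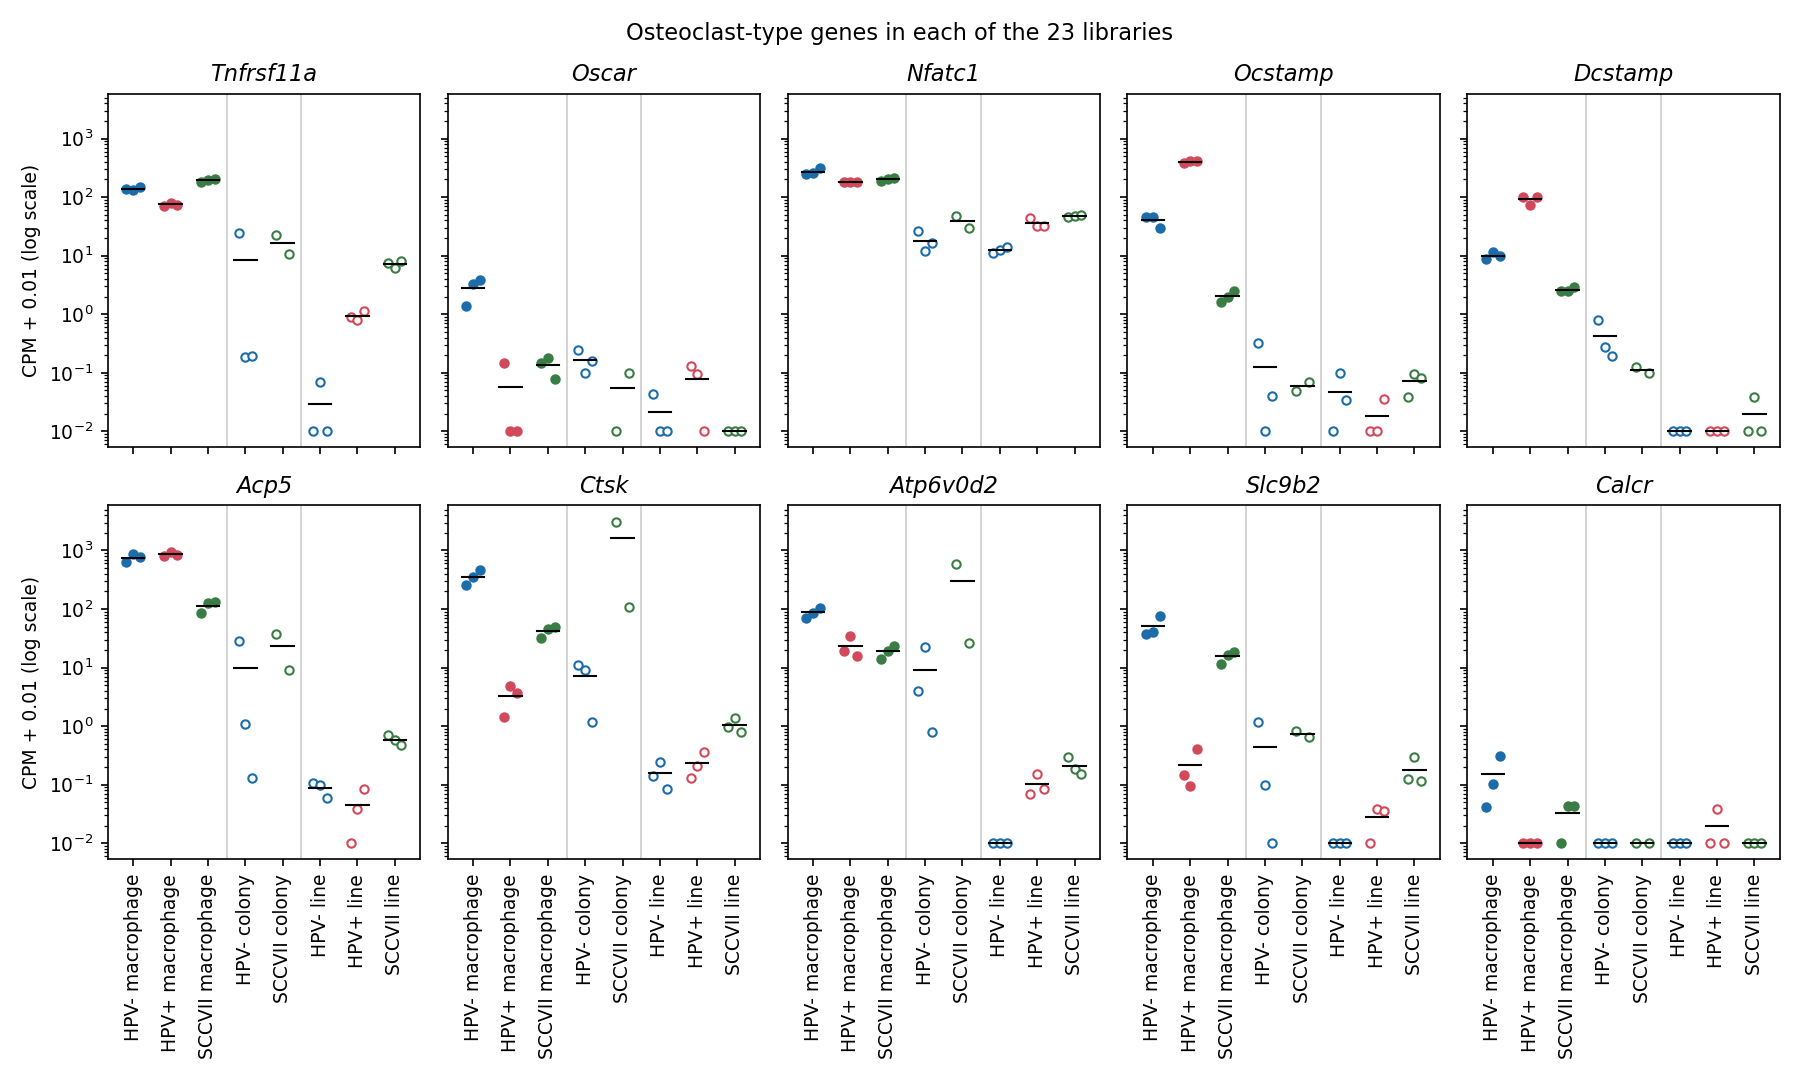
Level of each gene in each of the 23 libraries, as CPM (counts scaled to library size) plus 0.01 on a log axis, by group (filled points, sorted macrophages; open points, colonies and lines; bars, group means). Ocstamp and Dcstamp were highest in HPV-positive MEER macrophages, Ctsk and Slc9b2 were low there, and Nfatc1 differed little between the macrophage groups.

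The 3 receptors behaved differently from one another. Tnfrsf11a (chromosome 1, 105780718 to 105847981), the RANK receptor itself, was well above the lines in every macrophage library. It stood at 135, 131 and 148 CPM in HPV-negative MEER macrophages, at 71.5, 80.3 and 72.6 CPM in HPV-positive MEER macrophages and at 182, 195 and 204 CPM in SCCVII macrophages. These 3 ranges did not overlap, with SCCVII highest and HPV-positive MEER lowest. The log2 difference was -0.86 ± 0.08 (SE) for HPV-positive against HPV-negative MEER, 0.47 ± 0.08 for SCCVII against HPV-negative MEER and 1.33 ± 0.08 for SCCVII against HPV-positive MEER.

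Oscar (chromosome 7, 3609813 to 3616157), a collagen-binding costimulatory receptor that signals through an ITAM adaptor, was scarce. HPV-negative MEER macrophages had 1.36, 3.27 and 3.76 CPM, from 42, 105 and 126 counts. The 3 HPV-positive MEER libraries together had 3 counts, all of them in library 1, and SCCVII macrophages had 4, 5 and 2 counts. The HPV-positive level was 0.0151 of the HPV-negative level, with a 95% counting interval of 0.00309 to 0.0446 that covers counting error only. SCCVII macrophages were lower than HPV-negative MEER macrophages by a log2 difference of -4.47 ± 0.72, and the SCCVII and HPV-positive ranges overlapped. Calcr (chromosome 6, 3685680 to 3764714), the calcitonin receptor, which marks mature osteoclasts, had 1, 3 and 10 counts in HPV-negative MEER macrophages and at most 1 count in any other library. It did not pass the filter on low counts in any fit, and expression was not detectable at this depth beyond those counts.

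Nfatc1 (chromosome 18, 80606205 to 80713071), the master transcription factor of osteoclast formation, varied least among the macrophage groups. Its level was 248, 256 and 315 CPM in HPV-negative MEER macrophages, 184, 182 and 182 CPM in HPV-positive MEER macrophages and 190, 203 and 213 CPM in SCCVII macrophages. HPV-negative MEER was highest and no 2 groups overlapped. The log2 differences from HPV-negative MEER were -0.56 ± 0.10 for HPV-positive MEER and -0.46 ± 0.09 for SCCVII, both small beside those of most other members. Between SCCVII and HPV-positive MEER macrophages the log2 difference was 0.10 ± 0.09.

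The 2 fusion genes shared a direction in each macrophage comparison. In HPV-positive against HPV-negative MEER they were higher where 6 of the other members were lower, and in SCCVII against HPV-negative MEER they were lower along with most members. Ocstamp (chromosome 2, 165393760 to 165400405) and Dcstamp (chromosome 15, 39745930 to 39760938) encode multispan membrane proteins needed for precursors to fuse into multinucleated cells. Ocstamp measured 46.2, 44.8 and 29.8 CPM in HPV-negative MEER macrophages, 388, 405 and 412 CPM in HPV-positive MEER macrophages and 1.58, 1.98 and 2.46 CPM in SCCVII macrophages. Dcstamp measured 8.88, 11.3 and 9.91 CPM, then 102, 72.7 and 99.2 CPM, and 2.47, 2.51 and 2.87 CPM in the same order. For both genes every HPV-positive library was above every HPV-negative MEER library, which in turn was above every SCCVII library. The log2 difference of HPV-positive against HPV-negative MEER was 3.34 ± 0.16 for Ocstamp and 3.21 ± 0.14 for Dcstamp. Against HPV-negative MEER, SCCVII was lower by a log2 difference of -4.34 ± 0.20 for Ocstamp and -1.96 ± 0.16 for Dcstamp. Per length, Ocstamp exceeded Dcstamp by a TPM ratio of 1.61 to 2.99 in the 6 MEER macrophage libraries and was below it, at 0.34 to 0.46, in the 3 SCCVII libraries.

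Dendritic cell markers differed along with the fusion genes. The sum over 6 such markers was 39.3 to 123 TPM in HPV-positive MEER macrophages, 6.31 to 10.0 TPM in HPV-negative MEER macrophages and 3.08 to 5.70 TPM in SCCVII macrophages, with all 6 detected in each group and none at 0. Their part in the result was not tested. In HPV-positive libraries 1, 2 and 3 the dendritic sum was 123, 39.3 and 88.8 TPM, and library 2 was also the lowest of the 3 in Dcstamp, though not in Ocstamp. Epithelial tumour cell markers (6 genes) summed to 159 to 197 TPM in HPV-positive MEER macrophages and 40.9 to 124 TPM in HPV-negative MEER macrophages. T cell markers (6 genes) summed to 5.62 to 19.8 TPM in SCCVII macrophages, 50.2 to 67.6 TPM in HPV-negative MEER macrophages and 31.7 to 54.5 TPM in HPV-positive MEER macrophages. SCCVII, with the lowest dendritic and T cell sums, was also the group with 8 of 9 members below HPV-negative MEER. Its epithelial sum, 71.6 to 77.0 TPM, lay within the range of HPV-negative MEER macrophages. The part of these cells was not tested either. In bulk RNA, fewer cells of a type and less RNA per cell cannot be told apart.

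The enzymes Acp5 and Ctsk, which are both abundant in osteoclasts, parted in HPV-positive MEER macrophages. Acp5 (chromosome 9, 22126727 to 22135711) encodes tartrate-resistant acid phosphatase, the classical histochemical osteoclast stain. It was at 623, 863 and 762 CPM in HPV-negative MEER macrophages, at 805, 929 and 829 CPM in HPV-positive MEER macrophages and at 86.8, 125 and 132 CPM in SCCVII macrophages. The 2 MEER groups overlapped (log2 difference 0.21 ± 0.16), and SCCVII was lower than HPV-negative MEER by a log2 difference of -2.72 ± 0.17. Acp5 overlaps the gene 6530413G14Rik on the other strand, and the strand setting of the counting is not given in the sources used here, so reads of the pair may be mixed. The same holds for Nfatc1 and its antisense gene AC123818.1.

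Ctsk (chromosome 3, 95499256 to 95509362) encodes cathepsin K, the protease that digests type I collagen in the resorption pit. HPV-negative MEER macrophages had 254, 351 and 471 CPM, HPV-positive MEER macrophages 1.43, 4.86 and 3.61 CPM, and SCCVII macrophages 32.4, 46.4 and 48.4 CPM. The groups were far apart, with the lowest HPV-negative library above every SCCVII library and the lowest SCCVII library above every HPV-positive library. The log2 difference was -6.73 ± 0.40 for HPV-positive against HPV-negative MEER and -3.10 ± 0.31 for SCCVII against HPV-negative MEER. Between the latter 2 groups, SCCVII was above HPV-positive MEER by 3.63 ± 0.37.

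Slc9b2 (chromosome 3, 135307700 to 135345387), which encodes a sodium/proton exchanger of osteoclast mitochondria and membranes, followed the order of Ctsk. It measured 37.2, 40.9 and 77.3 CPM in HPV-negative MEER macrophages, 11.5, 16.5 and 18.4 CPM in SCCVII macrophages and 0.138, 0.0867 and 0.392 CPM, from 3, 2 and 10 counts, in HPV-positive MEER macrophages. None of the 3 ranges overlapped. The log2 difference was -7.88 ± 0.51 for HPV-positive and -1.77 ± 0.30 for SCCVII, each against HPV-negative MEER, and 6.11 ± 0.54 for SCCVII against HPV-positive MEER.

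Atp6v0d2 (chromosome 4, 19876841 to 19922605) encodes the d2 subunit of the V-ATPase, the proton pump that acidifies lysosomes and the resorption pit, and d2 has a role in osteoclast fusion. HPV-negative MEER macrophages had 70.4, 85.8 and 106 CPM, HPV-positive MEER macrophages 19.5, 34.9 and 15.5 CPM and SCCVII macrophages 14.1, 19.0 and 23.8 CPM. HPV-negative MEER stood above both other groups, which overlapped. The log2 difference was -1.88 ± 0.30 for HPV-positive and -2.22 ± 0.30 for SCCVII, each against HPV-negative MEER. Its paralogue Atp6v0d1, the d1 subunit found in most cell types, was even across the macrophage libraries at 197 to 233 TPM. In CPM its mean was 255 in HPV-positive and 213 in HPV-negative MEER macrophages. The d2 share of both d subunits, per length, was 16.96, 18.05 and 26.41% in HPV-negative MEER, 4.53, 7.43 and 3.80% in HPV-positive MEER and 3.93, 5.13 and 6.53% in SCCVII macrophages.

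HPV-negative MEER macrophage library 4 had the highest Ctsk, Atp6v0d2, Slc9b2, Oscar and Nfatc1 of its group and the lowest Ocstamp. It also held more fibroblast and epithelial marker transcripts than libraries 1 and 2. The fibroblast sum (7 genes) was 32.0 against 5.8 and 4.8 TPM, and the epithelial sum 124 against 58.2 and 40.9 TPM. Its T cell sum (52.8 against 67.6 and 50.2 TPM) and dendritic sum (9.83 against 10.0 and 6.31 TPM) lay between theirs. The part of these other cell types was not tested. Without library 4 the log2 difference of HPV-positive against HPV-negative MEER was -6.47 for Ctsk, -7.46 for Slc9b2, -1.72 for Atp6v0d2 and 3.17 for Ocstamp. SCCVII against HPV-negative MEER, without library 4, gave -2.85 for Ctsk and -1.35 for Slc9b2.

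**Figure D2:**
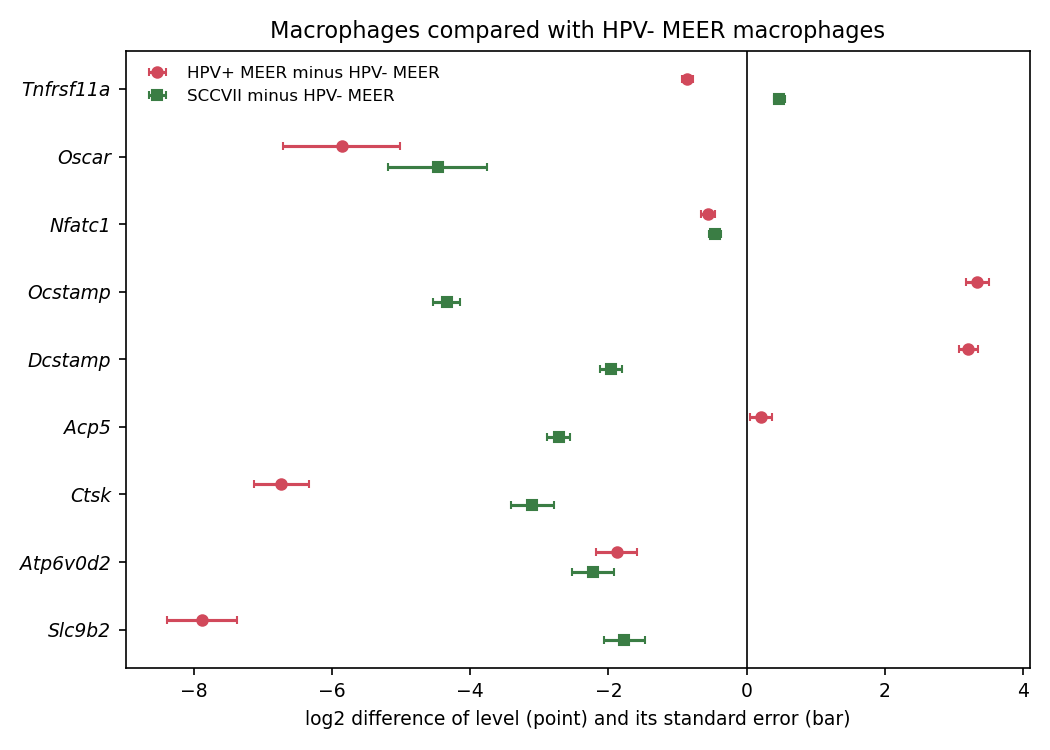
Log2 difference of level with its standard error for the 9 genes that passed the filter on low counts, for HPV-positive MEER (circles) and SCCVII macrophages (squares), each minus HPV-negative MEER macrophages, with 3 libraries a group. Ocstamp and Dcstamp lie to the right for HPV-positive MEER (3.34 and 3.21) and to the left for SCCVII.

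Counts of members past the threshold (edgeR adjusted p under 0.05 over all genes tested) are set beside the same share over all genes, and nothing is read from them because the members were chosen with these values known. Of the 10 members 9 could be tested in each macrophage comparison, since Calcr did not pass the filter. HPV-positive against HPV-negative MEER had 2 members higher and 6 lower, where 22.8% of 14085 genes were higher and 25.9% lower. SCCVII against HPV-negative MEER had 1 higher and 8 lower, beside 18.7% and 20.5% of genes, and SCCVII against HPV-positive MEER had 3 higher and 3 lower, beside 32.2% and 30.9%. The median log2 difference of the 9 genes was -0.86, -2.22 and 0.10 in that order, beside -0.05, -0.02 and 0.01 over all genes tested. These comparisons share macrophage libraries and are not independent of each other. In a fit of all 23 libraries the calls came to 5 of 9 members for HPV-positive and 4 of 9 for SCCVII, each against HPV-negative MEER.

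Per transcript length, the make-up of the 10 genes differed between models. Acp5 led in all 3 macrophage groups, with a mean of 905 TPM (57.7% of the 10 genes' summed TPM) in HPV-negative MEER. Its mean was 861 TPM (74.6%) in HPV-positive MEER and 140 TPM (40.3%) in SCCVII. In CPM the 2 MEER groups stood the other way round for Acp5, at means of 749.5 and 854.4 with overlapping ranges. Ctsk came second in HPV-negative MEER, at 397 TPM (25.3%), but stood at 3.02 TPM (0.3%) in HPV-positive MEER, where Ocstamp came second at 145 TPM (12.5%). In SCCVII Acp5 was followed by Nfatc1 at 70.4 TPM and Tnfrsf11a at 61.1 TPM, both ahead of Ctsk at 46.8 TPM. The summed level of the 10 genes was 1240 to 1869 TPM in HPV-negative MEER, 1098 to 1231 TPM in HPV-positive MEER and 296 to 383 TPM in SCCVII macrophages.

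**Figure D3:**
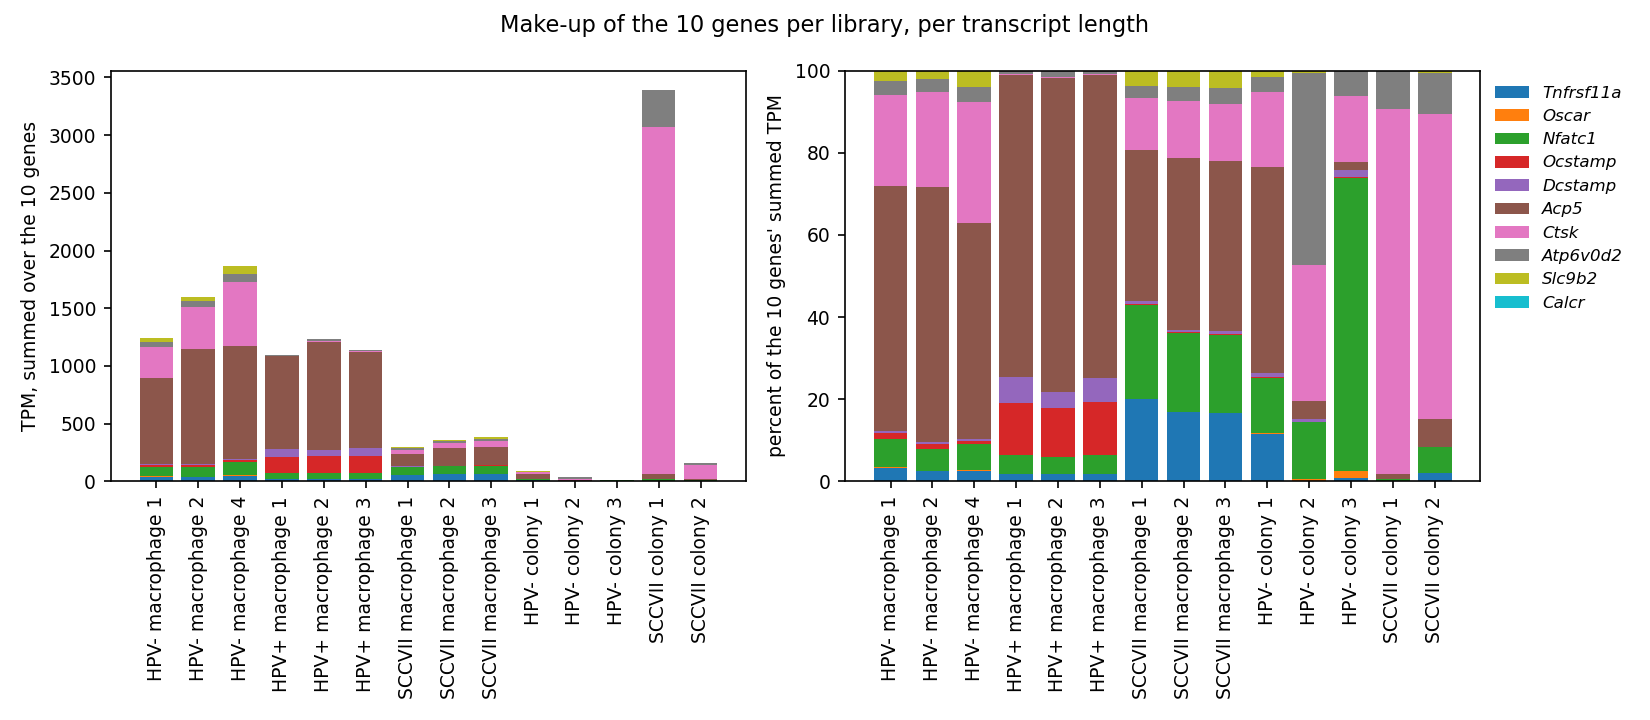
Summed TPM of the 10 genes (left) and the percentage each gene gave of that sum (right) in each macrophage and colony library. Acp5 was the largest part in every macrophage library, and SCCVII colony 1 reached 3391 TPM, most of it Ctsk.

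The cultured lines carried little of this set. Nfatc1 was the exception, at 11.3 to 13.8 CPM in HPV-negative MEER, 31.7 to 44.2 CPM in HPV-positive MEER and 46.4 to 48.8 CPM in SCCVII cells, and it made up 93.9, 94.3 and 78.8% of the 10 genes' TPM there. Tnfrsf11a was at 7.44, 6.11 and 8.07 CPM in SCCVII cells and at most 1.11 CPM in the MEER lines. Ctsk did not exceed 1.39 CPM in any line library, and Acp5 did not exceed 0.684 CPM. In the HPV-positive MEER line, Ocstamp had 1 count and Dcstamp none over the 3 libraries. Macrophages were above their line for Nfatc1 by a log2 difference of 4.56 ± 0.14 in HPV-negative MEER, 2.5 ± 0.13 in HPV-positive MEER and 2.22 ± 0.13 in SCCVII. Dcstamp, Atp6v0d2 and Slc9b2 had no count in the HPV-negative MEER line, so its macrophages were at least 353-fold, at least 3090-fold and at least 1840-fold higher, against a floor of 3 counts over the group. For Ctsk the HPV-positive macrophages exceeded their line by 3.99 ± 0.51, compared with 11.38 ± 0.50 in HPV-negative MEER.

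Against the lines, 9 of 9 tested members were higher in HPV-negative MEER, 8 in HPV-positive MEER and 9 in SCCVII macrophages, and none was lower. Over all 15835 genes, 38.7% were higher and 37.4% lower in HPV-negative MEER, 39.6% and 39.1% in HPV-positive MEER, and 37.4% and 35.5% in SCCVII. The member not called was Oscar in HPV-positive MEER, with 3 counts in macrophages and 7 in the line. The call for Slc9b2 in HPV-positive MEER rested on 15 counts against 2. It was lost without HPV-positive macrophage library 3 (log2 difference 2.52) and in a fit of all 23 libraries (3.27). In SCCVII, Oscar had 11 counts in macrophages and 0 in the line, at least 4.03-fold higher.

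Colonies had lower levels than macrophages for most members, while Ctsk and Atp6v0d2 went opposite ways in the 2 models. In HPV-negative MEER colonies 1, 2 and 3 Ctsk was at 11.0, 8.98 and 1.15 CPM, Acp5 at 27.9, 1.08 and 0.121 CPM, and Tnfrsf11a at 24.5, 0.176 and 0.181 CPM. Colony 1 held most of what remained of Acp5 and Tnfrsf11a, and it was the library with the most macrophage marker transcripts, Csf1r being at 558, 5.21 and 0.664 CPM in the same order. Nfatc1, at 26.0, 11.9 and 16.2 CPM, was far below its macrophages and near the 11.3 to 13.8 CPM of the cultured line. Atp6v0d2 was at 3.98, 22.1 and 0.784 CPM, highest in colony 2. The log2 difference from HPV-negative MEER macrophages was -5.65 ± 1.23 for Ctsk, -6.21 ± 1.65 for Acp5, -8.20 ± 0.86 for Ocstamp, -3.92 ± 0.34 for Nfatc1 and -3.31 ± 1.23 for Atp6v0d2. The difference for Atp6v0d2 fell short of the threshold without colony 1 (-2.90), colony 3 (-2.70) or any 1 macrophage library (-3.09 to -3.45). That of Tnfrsf11a, -3.99 ± 1.53, did so without colony 2 or 3 (-3.37 each) or any 1 macrophage library (-3.89 to -4.03).

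SCCVII colonies held very high Ctsk, but in 1 of 2 libraries. Ctsk was at 3119 CPM in colony 1 and 109 CPM in colony 2, and Atp6v0d2 at 582 and 26.0 CPM, both above every SCCVII macrophage library. Acp5 was at 36.7 and 9.15 CPM, Tnfrsf11a at 22.5 and 10.6 CPM and Nfatc1 at 47.6 and 29.1 CPM, all below every SCCVII macrophage library. The fusion genes were almost absent, with 1 and 2 counts of Ocstamp and 3 and 3 counts of Dcstamp. The log2 difference from SCCVII macrophages was 5.23 ± 1.24 for Ctsk and 3.99 ± 1.31 for Atp6v0d2. Without colony 1 these were 1.37 and 0.46, neither past the threshold. The Atp6v0d2 call was also lost without any 1 SCCVII macrophage library (3.81, 3.99 and 4.18). The d2 share of the d subunits, per length, was 62.2% in colony 1 and 10.5% in colony 2.

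Transcripts of other cell types were plentiful in both kinds of colony. Fibroblast markers (7 genes) summed to 1089 and 1045 TPM in SCCVII colonies 1 and 2 and to 221, 539 and 186 TPM in HPV-negative MEER colonies. The cultured SCCVII line itself had 863 to 938 TPM, so this list does not tell fibroblasts from SCCVII tumour cells. The HPV-negative MEER line had 62 to 87.4 TPM. Epithelial markers summed to 154 and 276 TPM and to 412, 467 and 565 TPM in the same order of colonies. They summed to 1197 to 1351 TPM in the SCCVII line and 366 to 589 TPM in the HPV-negative MEER line. Neutrophil markers (6 genes) reached 1282 TPM in HPV-negative MEER colony 1. How much of a member's level these cells carry was not tested. HPV-negative MEER colonies came from a table of their own, so the table and the group cannot be told apart.

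**Figure D4:**
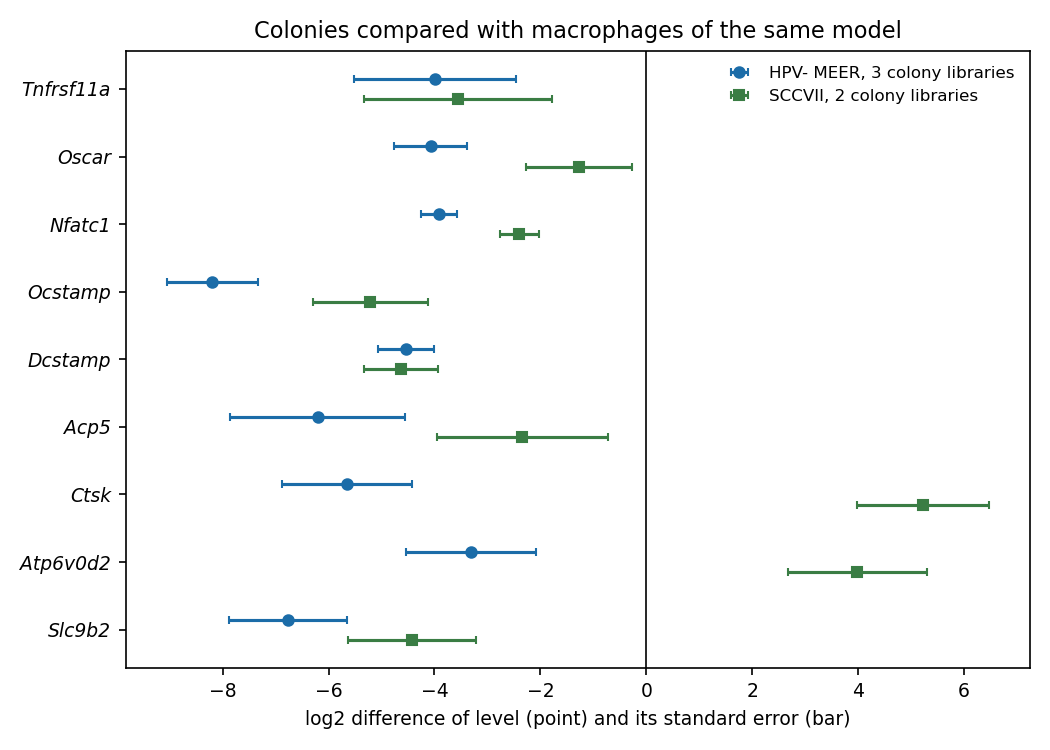
Log2 difference of level, colonies minus macrophages of the same model, with its standard error for 9 genes (circles, HPV-negative MEER; squares, SCCVII). Ctsk and Atp6v0d2 lie left of 0 for HPV-negative MEER (-5.65 and -3.31) and right of 0 for SCCVII (5.23 and 3.99), falling to 1.37 and 0.46 without SCCVII colony 1.

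Of 9 tested members, 9 were lower in HPV-negative MEER colonies than in macrophages and 0 higher, while 28.7% of 16238 genes were lower and 34.0% higher. In SCCVII 2 were higher and 4 lower, beside 29.7% and 22.3% of genes, and without colony 1 the calls came to 3. The difference between the 2 models' colony changes passed the threshold for 3 members, all higher in SCCVII (Ctsk at 10.89 ± 1.75, Atp6v0d2 at 7.30 ± 1.80 and Nfatc1 at 1.51 ± 0.45 on the log2 scale), beside 13.5% of genes higher and 10.6% lower. That count was 1 without SCCVII colony 1, and 7 without HPV-negative MEER colony 1. Leaving out SCCVII macrophage 1 or 2 also gave 1.

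The rest of the pathway was covered by 76 genes in 7 lists, which are no members and were tested. The lists and the rule for naming genes were also chosen with earlier results of these data known. The adjusted p-values of the pathway genes are therefore a description and not an independent test. In HPV-positive against HPV-negative MEER macrophages 26 of 74 tested genes rose and 20 fell, beside the 22.8% and 25.9% of all genes given above, and their median log2 difference was 0.04 against -0.05 over all genes. Csf1, the growth factor of macrophages and osteoclast precursors, rose from 21.2, 23.3 and 50.6 CPM to 207, 438 and 245 CPM (log2 difference 3.25 ± 0.38, edgeR adjusted p = 0.00012). Its receptor Csf1r was at 2919 against 3069 CPM (adjusted p = 0.75). The ligand of RANK, Tnfsf11, and its decoy receptor Tnfrsf11b were too low to test, with Tnfsf11 at 0.0434 to 0.599 CPM in the 6 MEER macrophage libraries and Tnfrsf11b at 0 to 0.418 CPM.

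Among signalling genes, the kinase Src rose by 1.31 ± 0.10 (edgeR adjusted p = 7.8e-06), and Trem2, a receptor paired with the ITAM adaptor Tyrobp, fell by 0.93 on the log2 scale (adjusted p = 2.4e-05). Tyrobp itself was at 867 against 853 CPM (adjusted p = 0.71). Of 6 repressors of osteoclast formation, 4 rose and 1 fell in HPV-positive MEER macrophages, with Irf8 at 537 against 279 CPM (adjusted p = 0.00015). Prdm1, which represses such repressors in osteoclast precursors, rose by 1.87 ± 0.11 (adjusted p = 2.5e-06). Of 13 resorption and attachment genes 5 rose and 5 fell. Tcirg1, the a3 subunit of the V-ATPase, rose by 0.52 ± 0.08 (adjusted p = 5e-04), Itgb3, the beta chain of the vitronectin receptor, fell by 0.93 (adjusted p = 0.0095) and Mmp9, a gelatinase, was at 770 against 582 CPM (adjusted p = 0.28). Of 15 other V-ATPase subunits 3 rose and 3 fell, Atp6v0d1 among the former by 0.28 ± 0.09 (adjusted p = 0.028). That call for Atp6v0d1 was lost without HPV-negative library 1 (adjusted p = 0.061) or HPV-positive library 1 or 2 (0.069 and 0.091). In a fit of all 23 libraries Trem2, Irf8, Tcirg1, Itgb3 and Atp6v0d1 lost their calls (adjusted p = 0.24, 0.60, 0.38, 0.20 and 0.42).

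SCCVII macrophages showed 12 pathway genes higher and 28 lower than HPV-negative MEER macrophages, of 74 tested, beside 18.7% and 20.5% of all genes (median -0.12 against -0.02). Mmp9 fell from 429, 813 and 505 CPM to 10.1, 22.2 and 21.1 CPM (log2 difference -5.05 ± 0.37, edgeR adjusted p = 1e-05). Its difference was known when the list was drawn up, and the limit given above holds for the other pathway genes too. Src fell by 2.99 (adjusted p = 7.1e-08), Csf1 by 2.61 (adjusted p = 0.001) and Prdm1 by 2.06 (adjusted p = 1.9e-06). Trem2 rose by 0.60 ± 0.08 (adjusted p = 0.00045, and 0.53 in a fit of all 23 libraries). Of the 15 other V-ATPase subunits 8 fell and none rose. Among them Atp6v0c was at 15.01 against 1294 CPM. This value is uncertain, since the division of reads among near-identical copies of the gene, and any part of the mouse strain in it, was not tested. Atp6v0d1 was at 216 against 213 CPM (adjusted p = 0.98). In a fit of all 23 libraries the pathway calls dropped from 46 to 17 for HPV-positive and from 40 to 14 for SCCVII, each against HPV-negative MEER.

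**Figure D5:**
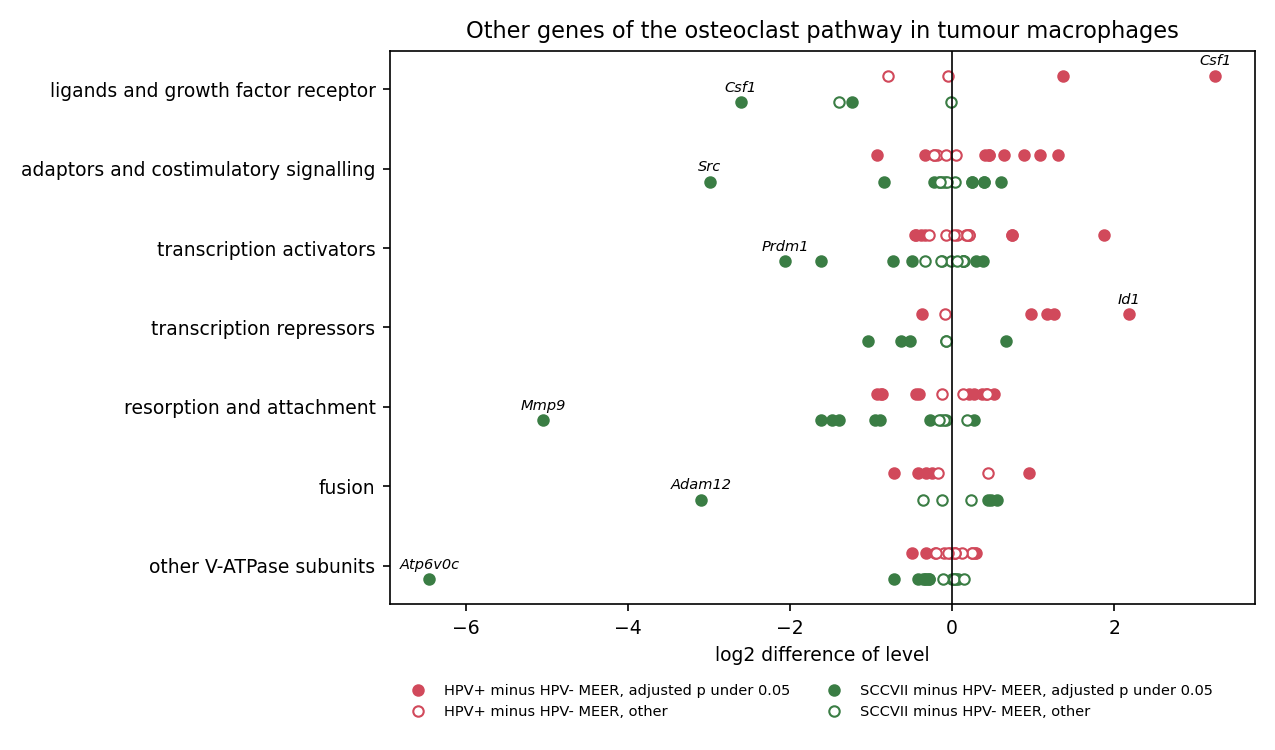
Log2 difference from HPV-negative MEER macrophages for the tested pathway genes by list (upper points, HPV-positive MEER; lower points, SCCVII; filled, edgeR adjusted p under 0.05), with names where the difference passes 2 in size. Csf1 lies at 3.25 for HPV-positive MEER and -2.61 for SCCVII, and Mmp9 at -5.05 for SCCVII.

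Of 6 ligand and growth factor receptor genes, 4 rose in each model's colonies, none fell and 2 did not pass the test. In HPV-negative MEER colonies Tnfsf11 rose by 2.17 ± 0.70 (edgeR adjusted p = 0.024), a call lost without colony 3 (0.077) or macrophage library 1 (0.080) or 2 (0.072). In SCCVII colonies Tnfsf11 was at 8.95 and 28.2 CPM against 0.0341 to 0.132 CPM in macrophages (log2 difference 7.64 ± 0.92, edgeR adjusted p = 0.00018), and Tnfrsf11b was at 28.8 and 13.5 CPM (8.75 ± 1.01, adjusted p = 0.00015). Tnfsf11 was thus higher in colony 2, the library with the lower Ctsk, and Tnfrsf11b higher in colony 1. Itgb3 rose to 92.0 and 30.9 CPM in SCCVII colonies (4.78 ± 0.56, adjusted p = 0.00016) and fell by 1.48 in those of HPV-negative MEER (adjusted p = 0.023). The latter call for Itgb3 was lost without colony 1 (adjusted p = 0.058), colony 3 (0.076), or macrophage library 2 (0.057) or 4 (0.064), and in a fit with the replicate number as a block (0.11). The difference between the 2 models in that change was 6.26 ± 0.73 (adjusted p = 0.00088). Among all pathway genes 18 rose and 22 fell in SCCVII colonies, beside 29.7% and 22.3% of all genes (median -0.44 against 0.07), of 76 tested. In HPV-negative MEER colonies 7 rose and 37 fell of 76, beside 34.0% and 28.7% (median -1.04 against 0.02).

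Genes with a like pattern were named for Ctsk, Atp6v0d2 and Nfatc1 as the 5 with the highest Pearson r of log2(CPM + 0.5) over the 23 libraries, among 11195 genes. These values are a description, since the libraries fall into macrophages, colonies and lines and share their depth and model. For Ctsk they were Fxyd2 (r = 0.963), Atp6v0d2 (0.912), Cd59a (0.884), Tpp1 (0.883) and Dbi (0.881). Fxyd2, a regulator of the sodium pump, was at a mean of 9.93 CPM in HPV-negative MEER macrophages, 9.46 CPM in SCCVII macrophages, 0.805 CPM in HPV-positive MEER macrophages and 31.9 CPM in SCCVII colonies. For Atp6v0d2 they were Ccl8 (0.954), Ccl6 (0.952), Pld3 (0.941), Pla2g15 (0.933) and Hist1h1c (0.927). Ccl8, a chemokine, was at a mean of 117 CPM in HPV-negative MEER, 27.2 CPM in HPV-positive MEER and 9.56 CPM in SCCVII macrophages and at 180 CPM in SCCVII colonies. For Nfatc1 they were Fmn1 (0.969), Dock4 (0.965), Mgat4a (0.964), Notch4 (0.962) and Zswim6 (0.957), and no member was among those 5.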

How the data were processed

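Per the labels' protocols, TruSeq Stranded mRNA libraries were sequenced. The authors deposited expected counts and TPM per gene, with the 3 HPV-negative MEER colonies in a table apart from the other 20 libraries. The submitters' processing notes name FastQC, STAR 2.5.3a, RSEM 1.3.0 and MultiQC with mm10/GRCm38 (annotation and strand setting: not given in the sources used here). Of 36793 Ensembl identifiers, 95.8% matched a symbol in GENCODE M21 (GRCm38), whose coordinates are given. Promoters are from RefSeq.

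Expected counts were rounded, and levels are CPM after TMM scaling over 23 libraries. Differences come from edgeR 4.0.16 quasi-likelihood fits (R 4.3.3; filterByExpr, minimum count 10; prior count 0.125; Benjamini-Hochberg over all genes, 0.05) of the 9 macrophage, the 18 macrophage and line, and the 11 HPV-negative MEER and SCCVII colony and macrophage libraries. TPM, without TMM scaling, served for levels between genes, for shares and for sums over markers or members. Some of these are set side by side between groups, where TPM and CPM need not give the same order. The 10 members, the lists and the rule for names were chosen with earlier results of these data known. The rule named all members, 11 fixed pathway genes and, per list, up to 2 called genes each way with the largest changes, no overlap and at least 10 CPM; some of these are not reported here. Fits were tested on simulated data with 1 spread for all genes and groups. That spread was below the 40.2% between libraries estimated in the colony fit, so the simulation does not cover the uneven colonies. Alternatives were RLE scaling, DESeq2 1.42.0, no filter, all libraries, a replicate block and each library left out.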

Additional observations from a re-analysis of the deposited data

Results flagged for a closer look

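The change from macrophage to colony differed between SCCVII and HPV-negative MEER for 3 of the 10 genes, by edgeR's test of the difference itself, given here as a description. On the log2 scale SCCVII minus HPV-negative MEER was 10.89 for Ctsk, 7.30 for Atp6v0d2 and 1.51 for Nfatc1. For Ctsk and Atp6v0d2 the models went opposite ways, and for Nfatc1 both colonies were below their macrophages. Over the alternatives the Ctsk difference ran from 7.02 to 11.84, that of Atp6v0d2 from 3.78 to 9.06 and that of Nfatc1 from 1.14 to 1.86. The call was lost in 1, 4 and 11 of 16 alternatives in that order. Without SCCVII colony 1 the Atp6v0d2 difference was 3.78 and not called, and that of Nfatc1 was 1.14 and not called.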

How the results depend on the processing

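Over all comparisons and alternatives, 869 recomputed member differences kept their side of the threshold, 48 lost the call, 7 gained it and 0 changed sign among called values. In a fit of all 23 libraries, whose shared spread includes the uneven colonies, member calls went from 8 to 5 (HPV-positive minus HPV-negative MEER macrophages) and from 9 to 4 (SCCVII minus HPV-negative MEER), and pathway calls from 46 to 17, from 40 to 14 and, for SCCVII minus HPV-positive MEER, from 56 to 35. Without 1 library at a time, member calls in SCCVII colonies ranged from 3 to 5 (main value 6), and for the difference of colony changes from 1 to 7 (main value 3). Pathway calls for that difference ranged from 17 to 49 (main value 25), 49 being without HPV-negative MEER colony 1, where the sign for Csf1r also turned, from -1.98 to 4.05 (the lowest value without 1 library was -4.27, without SCCVII colony 1). The cause was not tested.

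In the check of pairing, r was -0.19 to 0.20 for same-numbered libraries and -0.25 to 0.24 for the others. The values of 1 group are not free of one another, as with 0.03 and -0.03 for SCCVII colonies 1 and 2 against macrophage library 1. By comparison the picture was mixed. Same-numbered libraries had r of 0.13 and 0.10 in HPV-positive against HPV-negative MEER macrophages, where the others had -0.15 to 0.04. In SCCVII against HPV-positive MEER macrophages they had 0.04, 0.11 and 0.05, and the others -0.07 to 0.03. In HPV-positive MEER macrophages against their line they were lower, at -0.03 to -0.02 against 0.01 to 0.02. Elsewhere the ranges overlapped. Whether same-numbered libraries share more than a number cannot be told from so few libraries. With the replicate block, member calls for the difference of colony changes fell from 3 to 0 and pathway calls from 25 to 12. Ctsk in SCCVII colonies was then 4.27 and Atp6v0d2 3.58, both without a call, as were Atp6v0d2 (-3.16) and Tnfrsf11a (-5.03) in HPV-negative MEER colonies. Depth limits Oscar, Calcr and Slc9b2 where counts are few, and 2 SCCVII colony libraries limit all values there.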
